A study of Homo sapiens with 4 samples.

Results

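The Ctrl cells of A2780s, an established human epithelial ovarian cancer (EOC) cell line, were read here on their own, as the Cy3 channel of every array in the series. The Ctrl members are 4 channels of the 8 on the 4 arrays, and the labels describe each as mock-transfected A2780s cells. Of their 45015 spots, the 43376 that were no control spots entered, as Cy3 brightness minus local background. The study made clones that lack the O-glycosylation enzyme GALNT3, and clones that lack GALNT3 with GALNT6 silenced by shRNA on top, and hybridized each KO clone against Ctrl RNA. Ctrl 1 and Ctrl 2 shared their arrays with GALNT3 KO clones 1 and 2, and Ctrl 3 and Ctrl 4 shared theirs with GALNT3/T6 KO clones 1 and 2. The KO RNA carried Cy5 on every array, with no dye swap in the labels, so dye and genotype cannot be told apart. By the study's methods the Ctrl clones of the knockout received a negative control CRISPR/Cas9 plasmid and the Cre vector, and mock-transduced clones received a scrambled shRNA. The labels name 1 Ctrl state and do not say which of these vectors the RNA on each array had seen, nor whether the 4 channels came from separate cultures or from 1 extract. Spread and p-values between them may therefore be technical. The growth medium is RPMI 1640 in the labels and DMEM in the study's methods. No other cell line was hybridized, so what follows is the state of 1 line in culture.

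Epithelial cells hold together through E-cadherin junctions and keratin filaments, while mesenchymal cells carry vimentin filaments, collagens and transcription factors such as SNAI2 and TWIST1, which repress epithelial genes. Carcinomas of the ovary are often described by genes of the Müllerian duct, such as PAX8, and lines cultured from them differ in how many they keep. GalNAc-transferases start mucin-type O-glycosylation by adding GalNAc to serine or threonine, and GALNT3 and GALNT6 are closely related members of that family.

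Signals were scaled so that the arrays shared their 75th percentile, which left them in arbitrary units. A gene was read at its brightest probe, and 25948 genes had one. A percentile is the place of a gene's mean signal among those genes. Brightness depends on the probe as well as on the RNA, so percentiles describe spots and do not count molecules. Among the named or listed genes with more than 1 probe, 134 of 242 had probes more than 2 log2 units apart, with a median distance of 2.30. The middle of the range lay at a signal of 944, the 95th percentile at 36889 and the 5th at 79.9. The 20 brightest genes held 2.55% of the summed signal and the 100 brightest held 10.1%.

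Scanner flags placed 22991 of 25948 genes (88.6%) well above background on all 4 arrays, 1819 (7.01%) on some and 1138 (4.39%) on none. Ctrl 1 stood apart from the other channels. Its share of probes well above background was 88.1%, against 91.4% to 93.2%, and 28 of its spots were flagged as not uniform, against 3 on each other array. Of the 1055 genes whose brightest probe was missed on a single array, 866 were missed on Ctrl 1. Without Ctrl 1, 23859 genes were well above background on all arrays left. Probes of genes seen on no array had a median GC content of 36.7%, against 43.3% for genes seen on all 4, and the part of probe sequence in the flag was not tested. Most genes of tissues that a cancer line is not made of carried the flag too, so the flag alone was not read as expression, and the percentile is given beside it.

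VIM, the vimentin filament of mesenchymal cells, was the brightest gene. Its probe (chr10:17277185-17277244 of hg19) read 182630, 189061, 511333 and 437031 on Ctrl 1 to 4, and its other probe was as bright. Ctrl 3 and Ctrl 4 stood clearly above Ctrl 1 and Ctrl 2, yet limma did not call the difference of 1.35 (log2, SE 0.14, adjusted p = 0.103). XRCC6, the Ku70 subunit of the DNA end-joining machinery, followed with 327303, 255061, 312284 and 284776. The other genes among the 20 brightest included the ribosomal proteins RPL13, RPS19, RPS27 and RPL11, the nucleolar proteins NPM1 and NCL, and HNRNPA1, which packages nuclear RNA. They also included the chaperonins HSPD1 and CCT4, the mitochondrial proteins ATP5MC3 and CHCHD2, and the cytoskeletal genes ACTB and TUBA1B. RPL22L1 and HNRNPA1L2 were there as well, the second through probes that a close relative of HNRNPA1 can share. 1 of the 20, a transcript described as an F1 beta subunit, has no symbol in the tables used. EMP1, a membrane protein of the tetraspan type, read 220326, 187980, 328702 and 348507, but its other probe lay at the 74.5 percentile. The other probe of ATP5MC3 lay lower still, at 58.9. Most of these genes varied little. CCT4 averaged 236773 ± 25834 (SD, n = 4), and RPS27 averaged 246599 ± 14677 (SD, n = 4).

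The machinery of growth and division was bright throughout. All 83 cytosolic ribosomal protein genes were well above background on all 4 arrays, 78 of them above the 95th percentile, with a median at 99.6. The median stood at 95.8 for 38 proteasome subunits, at 98.95 for 11 chaperonin subunits, at 95.1 for 23 hnRNP proteins and at 92.7 for 51 translation initiation factors. Members known from testis lay far lower, with PSMA8 at 0.586 and CCT8L2 at 12.3. RPSA, a core ribosomal protein, lay at 22.2 on this array. Of 32 proliferation genes, 32 were seen on all 4 arrays with a median at 91.8, where the median of all genes is the middle by construction. The share seen on all 4 arrays was 88.6% over all genes. The replicative helicase subunit MCM7 read 128317, 103566, 98754 and 78228, and thymidylate synthase TYMS read 69236, 91618, 97788 and 89604. MKI67, the proliferation antigen Ki-67, was the dimmest of the 32 with 584, 655, 632 and 642, through a single probe.

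**Figure D1:**
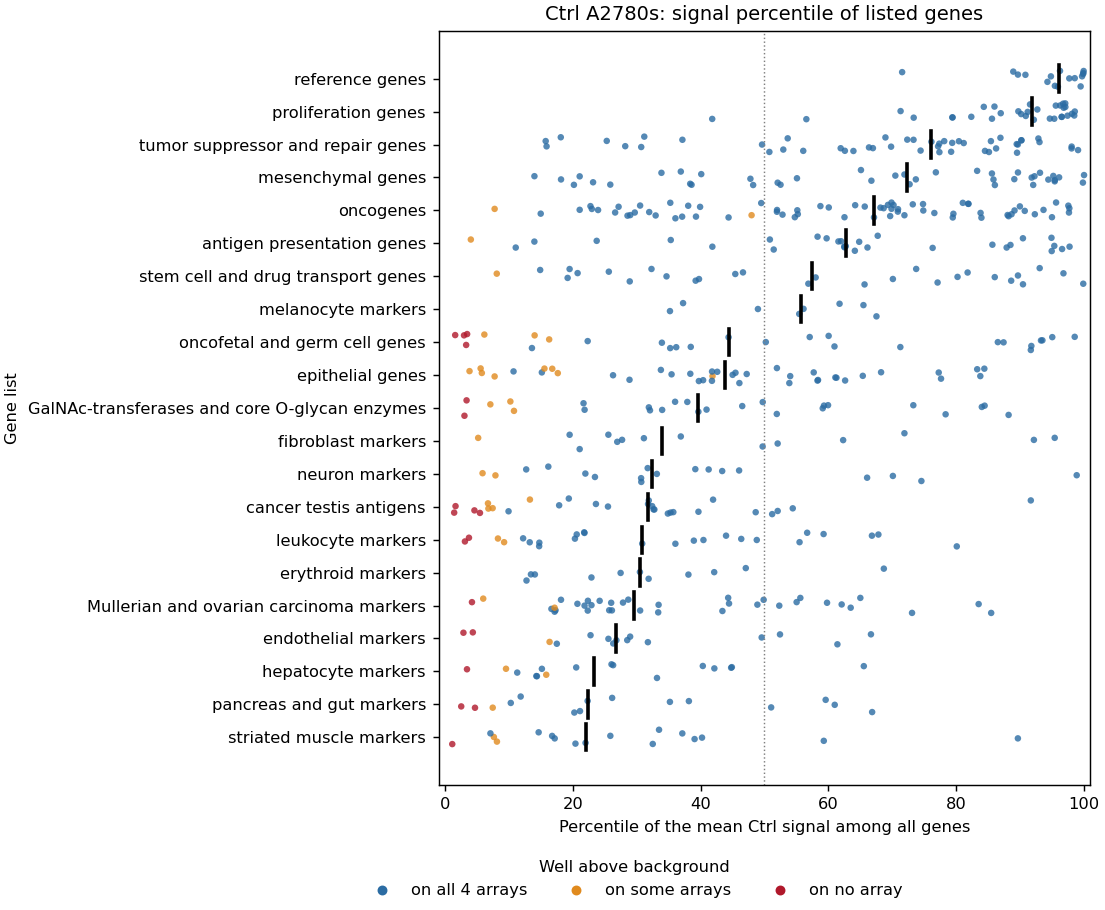
Signal percentile (x axis, among 25948 genes) of the members of each gene list (y axis) in the Ctrl cells. Each point is a gene, coloured by the number of arrays on which it was well above background, and the black bar is the list's median. Reference and proliferation genes stand at the top with medians of 96.1 and 91.8, the mesenchymal list lies at 72.3, the epithelial list at 43.8 and the Müllerian list at 29.6.

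Mesenchymal genes were brighter than epithelial genes as lists, with all 40 mesenchymal genes well above background on all 4 arrays against 32 of 40 epithelial genes. Over all genes that share was 88.6%. The list medians were 72.3 and 43.8. After VIM the brightest mesenchymal genes were the tropomyosin TPM2 with 209101, 183021, 204814 and 163389, the smooth muscle actin ACTA2 with 42846, 49483, 47365 and 45217, and the collagens COL5A2 and COL3A1. COL3A1 averaged 40109 ± 1925 (SD, n = 4). Transcription factors of the mesenchymal state were bright as well, with SNAI2 at 36515, 32880, 32529 and 31981 and TWIST1 at 21244, 22176, 21318 and 21925. The other SNAI2 probe lay at the 32.7 percentile and the other TWIST1 probe at 58.2. Not every mesenchymal gene was bright. ZEB1, another repressor of E-cadherin, lay at 38.6, and N-cadherin (CDH2) at 52.5. The gelatinase MMP2 was the dimmest of the list with 166, 165, 139 and 148.

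Some genes of epithelial junctions were dim and others were not. At their brightest probes CLDN3, OCLN and MARVELD3 lay at the 57.7, 53.9 and 61.3 percentiles. Other probes of CLDN3 and MARVELD3 lay as low as 12.1 and 2.07. E-cadherin (CDH1) read 158, 192, 162 and 150 and averaged 166 ± 18.4 (SD, n = 4), a percentile of 15.2. EPCAM, the epithelial cell adhesion molecule, lay at 26.3 with 306, 302, 295 and 293. The tight junction gene CLDN4 read 158, 136, 105 and 106, and the epithelial transcription factors GRHL2 and ELF3 lay at 5.59 and 5.78. No member of the epithelial list was below the flag on all 4 arrays, and 8 were above it on some. The shares over all genes were 4.39% and 7.01%. The 8 included GRHL2, ELF3, EHF, OVOL1, SPINT1 and RAB25. The bright end held TJP1, which links junctions of many cell types to actin, with 9174, 8205, 8135 and 7732, and plakoglobin (JUP) with 5358, 4904, 5071 and 4843.

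Of the simple-epithelium keratins, KRT8, KRT18, KRT19 and KRT7 read differently on the array pairs, although at their brightest probes limma called KRT8 alone of these. KRT20 was not higher on Ctrl 3 and Ctrl 4, with 414, 319, 309 and 310 on Ctrl 1 to 4. KRT8 read 1967 and 2297 on Ctrl 1 and Ctrl 2, but 13217 and 17362 on Ctrl 3 and Ctrl 4. KRT18, its filament partner, read 1825, 1517, 10874 and 6599, and KRT19 read 3366, 2679, 20992 and 9868. KRT7 went from 99.1 and 252 to 729 and 1437. In KRT8, KRT18, KRT19 and KRT7 the pair Ctrl 3 and Ctrl 4 lay above the pair Ctrl 1 and Ctrl 2 without overlap. How many of all genes separate in this way was not counted. The Cy5 channel of the same spots, which held KO RNA, read 96254 and 170451 for KRT8 on the GALNT3/T6 KO arrays, against 1612 and 2234 on the arrays of the GALNT3 KO clones. KRT8 is among the genes that the test between array pairs, described last, called (adjusted p = 0.0383 from limma). KRT18, KRT19 and KRT7 did not pass it (adjusted p = 0.138, 0.360 and 0.496 from limma). For KRT18 this holds for its brightest probe, which entered that test. Its other probes, which did not enter, differed between the pairs by 4.18, 5.38 and 0.309 (log2). The part of Cy5 in these differences was not tested.

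Markers of ovarian carcinoma and of the Müllerian duct were mostly dim, although A2780s is labelled an ovarian cancer line. Of 36 such genes, 33 (91.7%) were well above background on all 4 arrays, beside 88.6% of all genes. Another 2 were so on some and HOXA11 on none. The list median of 29.6 lay below that of all genes. MEIS1, a partner of HOX proteins, was the brightest with 12066, 9474, 9757 and 9799. FOXL2, a transcription factor of granulosa cells, read 9517, 7625, 8267 and 8682. WFDC2, which encodes the ovarian cancer marker HE4, read 5078, 4024, 2782 and 2920. PAX8 averaged 1811 ± 380 (SD, n = 4) at its brighter probe, a percentile of 62.1, while its other probe lay at 8.59 and was well above background on 3 arrays. MUC16, the gene of CA125, read 179, 344, 330 and 221, and WT1 read 130, 281, 380 and 393. PAX2 was near the floor with 87.9, 112, 75.9 and 77.2. GATA6 was not above the flag on Ctrl 1 and Ctrl 2, with 55.3 and 66.6, and read 276 and 343 on Ctrl 3 and Ctrl 4, where its Cy5 signal was 10799 and 12663.

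HOX genes, whose clusters lay out the body axis, were looked at after their values had been seen, and they fell into a clear pattern. In the HOXB cluster 7 of 10 genes lay above the 75th percentile, against 1 of 11 in HOXA, 2 of 9 in HOXC and 1 of 9 in HOXD. The cluster medians were 86.7, 29.3, 50.8 and 47.9. HOXB9 read 107570, 101667, 108325 and 110447, HOXB6 read 76706, 68799, 72398 and 74750, and HOXB2 read 48243, 38057, 40515 and 37857. All 4 channels repeated these levels closely. HOXA3 was the bright gene of its cluster, at 98.1, and HOXC9 the brightest of HOXC, at 93.4. HOXA9, HOXA10 and HOXA11, which pattern the Müllerian duct, lay at 25.7, 33.4 and 4.23. HOXA11 and HOXC4 were well above background on no array. HOXA7 read 92.6 and 173 on Ctrl 1 and Ctrl 2 and 562 and 560 on Ctrl 3 and Ctrl 4, where its Cy5 signal was 7914 and 8327.

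**Figure D2:**
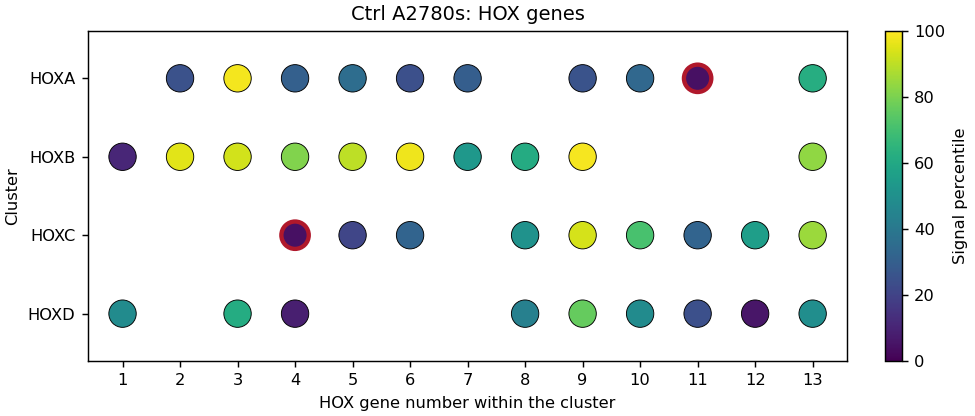
Signal percentile (colour) of each HOX gene in the Ctrl cells, by cluster (y axis) and by gene number (x axis). Red rings mark genes well above background on no array, and gaps are numbers that are not shown. HOXB2 to HOXB6, HOXB9 and HOXB13 are bright, and most of HOXA and HOXD is dim.

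Among 69 oncogenes, 67 (97.1%) were well above background on all 4 arrays, beside 88.6% of all genes. None was below the flag on every array, beside 4.39% of all genes, and the median percentile was 67.1. The brightest were MCL1, an inhibitor of apoptosis, with 88222, 72863, 72895 and 66037 and dimmer probes at 78.9 and 60.7, the kinase AKT2, the cell cycle genes CCND2 and CDK4, and MYC. CCND2, cyclin D2, read 57275, 69248, 73784 and 83337, and all 3 of its probes lay at or above the 96.4 percentile. MYC, the transcription factor of growth, read 38707, 35705, 36235 and 36201, but its other probes lay at 70.2 and 30.6. AKT2 showed the same, with other probes at 73.0 and 15.9. Cyclin E1 (CCNE1) averaged 29276 ± 3400 (SD, n = 4), and the receptor kinase ERBB4 averaged 18947 ± 628 (SD, n = 4) at the brighter of probes that lay at 90.7 and 40.2. ERBB2 read 7723, 6809, 6548 and 6634 at its brightest probe. Its other probes lay at 27.6 and 0.555, the last well above background on no array. Other receptor kinases ranged widely, from KIT at 23.0 and ROS1 at 27.2 through MET at 55.2 and PDGFRA at 71.9 to FGFR1 at 81.9. These are brightest probes, and other probes of MET, PDGFRA and FGFR1 lay as low as 34.3, 7.65 and 3.09. EGFR read 162 and 186 on Ctrl 1 and Ctrl 2 and 488 and 995 on Ctrl 3 and Ctrl 4, with Cy5 at 1460 and 3071 there. JUN and RAB25 were the oncogenes seen on some arrays.

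All 47 tumor suppressor and repair genes were well above background on all 4 arrays, beside 88.6% of all genes, with a median of 76.1. VHL, which targets hypoxia factors for degradation, read 132291, 140663, 118200 and 111721 at its brighter probe and lay at 64.3 at the other. The mismatch repair gene MSH6 lay at 98.1, the chromatin remodeller SMARCA4 at 98.0 and the Hippo regulator NF2 at 93.0. SMARCA4 and NF2 had dimmer probes down to 55.0 and 16.6. CDKN2A, which encodes the inhibitor p16, averaged 16674 ± 1588 (SD, n = 4), and RB1 averaged 9922 ± 317 (SD, n = 4). BRCA1 lay at 78.1 and BRCA2 at 30.7. CDKN2B lay at 15.8 and the imprinted gene PEG3 at 15.9, which made them the dimmest of the list.

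Oncofetal genes split. HMGA2, a chromatin protein of early development, read 79492, 98692, 111390 and 115667, with a dimmer probe at 76.9. SALL4, a zinc finger factor of germ and stem cells, read 26309, 29425, 27667 and 30352. The RNA-binding proteins IGF2BP3 and IGF2BP1 lay at 93.3 and 91.8, PRAME at 91.7 and the glypican GPC3 at 86.5. MEST, an imprinted gene, read 49439, 42064, 37784 and 18774, with Cy5 at 151433 and 377179 on the arrays of the lower values. LIN28A, DPPA4, DDX4 and AFP were well above background on no array, but passed the scanner's weaker flag for positive and significant signal on 3 arrays each, and LIN28B lay at 61.0. The pluripotency factors SOX2 and POU5F1 lay at 22.3 and 36.2. In all, 20 of 27 genes of this list (74.1%) were seen on all 4 arrays, beside 88.6% of all genes. Its median of 44.4 lay near that of all genes. Of 28 cancer testis antigens, 20 (71.4%) were seen on all 4 arrays, with a median of 31.8. PRAME, which both lists hold, was the only antigen of the 28 above the 75th percentile.

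Of 25 GalNAc-transferases and core O-glycan enzymes, 20 were well above background on all 4 arrays, 3 on some and 2 on none, with a median of 39.7. Over all genes the shares were 88.6%, 7.01% and 4.39%. GALNT16 was the brightest with 14326, 14087, 13734 and 13709, followed by GALNT11 with 10225, 8878, 9130 and 8847 and GALNT1 with 9159, 8530, 9036 and 8979. In each the channels differed little. C1GALT1C1, the chaperone of core 1 synthase, read 6320, 5048, 5292 and 5246, and GALNT2 read 3023, 3473, 4203 and 4380. GALNT2 thus lay at the 73.3 percentile. The study, citing earlier work, states that GALNT2 was not expressed in the EOC lines tested, and does not name the measure there. GALNTL5 and GALNT8 were seen on no array.

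Of the study's own genes, GALNT3, GALNT6 and FN1 were dim in the Ctrl cells, and MUC1 lay nearer the middle of all genes. GALNT6 (chr12:51747906-51747965) averaged 236 ± 45.8 (SD, n = 4), a percentile of 21.7. GALNT3 (chr2:166604416-166604475) read 45.4 and 51.4 on Ctrl 1 and Ctrl 2, where it was not well above background, and 201 and 209 on Ctrl 3 and Ctrl 4, where it was. On those arrays its Cy5 signal was 7324 and 8136, although their clones are labelled GALNT3/T6 KO, so this RNA probe shows no loss on them. The study describes disruption of the gene through homology-directed repair and reports loss of GALNT3 protein on Western blots. Protein and RNA are different measures. Where the probe lies relative to the disrupted part is not given in the sources used here. The difference of 1.22 (log2) between the pairs was not called by limma (adjusted p = 0.0889). On both pairs the GALNT3 signal was far below the middle of all genes. The study, citing earlier work, describes GALNT3 expression in A2780s as strong and that of GALNT6 as rather weak. The low GALNT3 reading here is RNA at a single probe, and why it differs from that account was not tested. The O-glycosylated mucin MUC1 averaged 748 ± 116 (SD, n = 4), a percentile of 45.5. Fibronectin (FN1) read 93.1 on Ctrl 1 and 331, 310 and 290 on Ctrl 2 to 4, and its other probes did not share that pattern. The reference genes were bright, with GAPDH at 83716, 76922, 75949 and 62119 and GUSB at 13716, 15457, 15999 and 15891. The brightest ACTB probe was lower on Ctrl 4, at 142218, than on the others, at 250496 to 259923, and its next probe was flat with 91333, 91188, 94786 and 84688.

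Lists for other cell types were dim. Median percentiles were 30.9 for leukocyte, 26.8 for endothelial, 34.0 for fibroblast, 23.3 for hepatocyte, 32.4 for neuron, 22.0 for striated muscle, 30.5 for erythroid and 22.3 for pancreas and gut markers, all below the middle of all genes. Between 80% and 100% of each of these lists was nevertheless above the flag on all 4 arrays, beside 88.6% of all genes. CD3D and SPI1 of leukocytes, PECAM1 and TIE1 of endothelium, APOB of liver, MYH1 of muscle, and SST and FABP1 of pancreas and gut were well above background on no array. Other markers of the same lists were above the flag on all 4 arrays and past the middle of all genes, with CD3E at 55.5, KDR at 61.4, ROBO4 at 52.4, AHSG at 65.5 and MYOG at 59.3. These are brightest probes. The other probe of each lay below the middle, at 45.1, 7.77, 7.14, 47.6 and 42.8 in that order. The pan-leukocyte gene PTPRC lay at 21.8. Summed over the list, leukocyte signal ran from 19907 to 23975 and endothelial signal from 8387 to 9436 over the 4 arrays. In a bulk culture, fewer cells of a type and less RNA per cell cannot be told apart. Single members went against their lists. The neurofilament gene NEFH read 114700, 113488, 117908 and 115072, the cardiac actin ACTC1 lay at 89.6 with another probe at 54.9, and CD4 lay at 80.1. The fibroblast list held COL3A1 and FBLN1 at 95.4 and 92.2. The melanocyte list stood higher, at 55.8, with no member above the 75th percentile.

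Of the 1138 genes well above background on no array, 602 were not matched to RefSeq, 415 were protein-coding and 99 were lncRNAs. These were 9.10% of the 6617 unmatched genes, 2.36% of 17610 protein-coding genes and 8.48% of 1167 lncRNA genes. Some families known from specialised tissues were dim. The 8 interferon alpha genes had a median of 17.1, and the 14 beta-defensins a median of 26.6. Of these defensins 3 were seen on no array, beside 4.39% of all genes. Protocadherins lay at 33.2 and keratins at 34.5, with KRT26 at 0.736. The 127 olfactory receptor genes had a median of 46.2, and 3 lay above the 75th percentile. Of the 127, 120 were above the flag on all 4 arrays, beside 88.6% of all genes. Their median lies near that of all genes, and what the probes of these receptors bind was not tested. S100A8 and S100A9, the calprotectin of myeloid cells, and the cytokines IFNG and IL4 were further genes on no array, named after their values had been seen.

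The 4 Ctrl channels were close. Over the 22956 genes whose brightest probe was well above background on all 4 arrays, Pearson's r ran from 0.976 between Ctrl 1 and Ctrl 3 to 0.997 between Ctrl 3 and Ctrl 4. Spearman's rho ran from 0.966 to 0.996. These correlations are across genes, which are not independent replicates, and on 1 slide and 1 scan. The median SD over the arrays was 0.17 (log2), and it fell from 0.25 among the dimmest genes to 0.12 among the brightest. SD was at most 0.5 in 92.4% of genes and over 1 in 233 genes, or 1.02%. Without Ctrl 1 the median SD was 0.08 and the lowest r was 0.989. Ctrl 1 differed at least 2-fold from another channel in 4.43% to 6.35% of genes, Ctrl 2 from Ctrl 3 and Ctrl 4 in 1.58% and 2.21%, and Ctrl 3 from Ctrl 4 in 0.37%. Spots of 1 probe repeated within an array gave a median SD of 0.29 on Ctrl 1 and of 0.15 to 0.17 on the others, so Ctrl 1 was also the noisiest within itself.

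**Figure D3:**
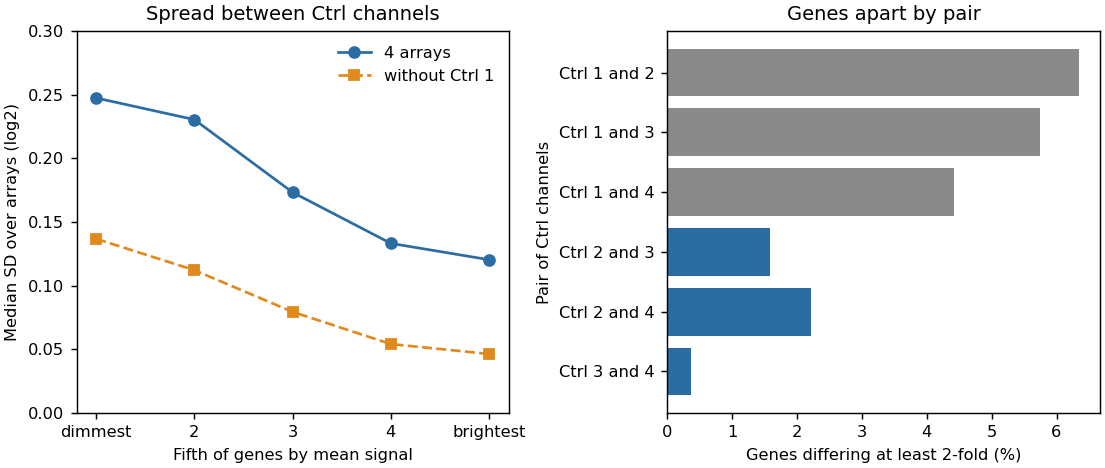
Left, median SD of the log2 signal over the Ctrl channels (y axis) in 5 equal groups of genes from dimmest to brightest (x axis), for 4 arrays and without Ctrl 1. Right, share of genes that differ at least 2-fold (x axis, %) for each pair of Ctrl channels (y axis), with pairs that hold Ctrl 1 in grey. The spread falls with signal, and Ctrl 3 and Ctrl 4 lie closest.

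The same Ctrl label stands on both pairs of arrays, and whether the Ctrl channel read the same on both was tested across 24206 genes with limma. At an adjusted p of at most 0.05 and at least 1.5-fold, 57 genes (0.235%) were higher on the GALNT3/T6 KO arrays and 0 genes (0%) were lower. At an unadjusted p of at most 0.05 there were 552 higher and 533 lower. CHI3L1, a secreted chitinase-like protein, showed the largest rise. It read 131 and 154 on Ctrl 1 and Ctrl 2 and 8481 and 10862 on Ctrl 3 and Ctrl 4. The difference was 6.07 (log2, SE 0.19, adjusted p = 0.0115 from limma). The other CHI3L1 probe rose less, with 188, 129, 516 and 754 on Ctrl 1 to 4. The interferon-induced IFI27 went from 286 and 317 to 8143 and 7147, and the protease PRSS23 from 236 and 364 to 9841 and 6941. BEX1 and the IGF-binding protein IGFBP7 were not well above background on Ctrl 1 and Ctrl 2 and were at least 59.5-fold and 57.3-fold higher on Ctrl 3 and Ctrl 4. Another probe, described as IGFBP7 but counted under its own name among the 57, read 292, 203, 2914 and 3302 on Ctrl 1 to 4. That probe was well above background on all 4 arrays and rose less, by 3.67 (log2). The matrix protein EFEMP1 was at least 28.1-fold higher and the transcription factor JUN at least 17.0-fold. These genes were picked by that call, so the distance between their pairs is no further support for it. The calls depended on which arrays were kept. No gene was called without Ctrl 1, without Ctrl 2 or without Ctrl 3, where 1 array stands for its pair and is assumed to vary like the others, while 3038, 11564 and 463 genes had an unadjusted p of at most 0.05. Without Ctrl 4, 51 genes were called, 37 of them among the 57.

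Each of the 57 genes was brighter still in Cy5. On the GALNT3/T6 KO arrays the Cy5 signal of the same spot was at least 3.64 times the Cy3 signal, and on the arrays of the GALNT3 KO clones between 0.366 and 2.79 times. The rise in Ctrl amounted to 4.85% of the Cy5 signal in the median gene, with a range from 0.728% for the sialomucin PODXL to 24.3% for the complement regulator CD55. Where Cy5 was at least 16 times Cy3 on any array, 34 of the 57 genes were among 170 genes tested. With those 170 left out, the other 23 of the 57 stayed in the test with the same values and differences, among them KRT8 at 2.83 and CD55 at 3.21 (log2). Of these 23, CHI3L1 and IFI27 alone kept the call, among 24036 genes. Whether KO signal reached the Cy3 readings was not tested. The opposite case was not called. HDAC9, a histone deacetylase, read 2386 and 4226 on Ctrl 1 and Ctrl 2, where Cy5 was 78718 and 85155, and 465 and 472 on Ctrl 3 and Ctrl 4 (adjusted p = 0.110).

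Of the 57 genes, 23 were pseudogenes of keratin 18, out of 35 such pseudogenes on the array. They were singled out after their values had been seen. Their probes are shown beside those of KRT18, the parent gene, to show how far the bases are shared. A search for the longest run of bases that a pseudogene probe has in common with a KRT18 probe found 20 bases or more in 3 of 39 probes. Only those 3 are shown, and the other 36 shared shorter runs. The probes were not compared with the whole KRT18 RNA. Capitals mark the shared runs, and both KRT18 probes lie on the forward strand of chromosome 12 (chr12:53344612-53344671 and chr12:53345577-53345636 of hg19).
KRT18, first probe: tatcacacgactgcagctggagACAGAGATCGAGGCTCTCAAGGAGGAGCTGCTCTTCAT
keratin 18 pseudogene 33: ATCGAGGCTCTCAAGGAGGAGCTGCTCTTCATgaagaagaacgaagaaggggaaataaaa
keratin 18 pseudogene 19: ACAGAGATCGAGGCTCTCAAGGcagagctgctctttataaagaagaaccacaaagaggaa
KRT18, second probe: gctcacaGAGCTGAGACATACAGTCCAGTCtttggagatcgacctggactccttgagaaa
keratin 18 pseudogene 34: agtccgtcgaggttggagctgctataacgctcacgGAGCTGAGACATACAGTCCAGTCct
Pseudogene 33 (chr2:65894205-65894264, forward strand) shared 32 bases, pseudogene 34 (chr3:156880829-156880888, reverse strand) shared 23 and pseudogene 19 (chr2:190176607-190176666, reverse strand) shared 22. Their Ctrl signals moved with those of KRT18. The probe shown for pseudogene 33 read 270 and 231 on Ctrl 1 and Ctrl 2 and 7424 and 8910 on Ctrl 3 and Ctrl 4. The first KRT18 probe read 396, 300, 6828 and 5733, and the second read 325, 334, 14041 and 13515. A KRT18 probe at chr12:53346570-53346630, on the reverse strand, did not move, with 146, 331, 274 and 271. Of the 39 pseudogene probes, 29 were at least 2 log2 units higher on the GALNT3/T6 KO arrays. How many of all probes rose as far was not counted. Among all 24206 genes tested, 57 (0.235%) were called higher there. Whether the pseudogene probes read KRT18 RNA was not tested. Without the 35 pseudogenes, a choice made after seeing the data, the same test called 34 genes.

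The relation between the channels turned with brightness. Over genes between the 25th and the 50th percentile of Ctrl signal, the difference of the Ctrl channel between the array pairs correlated with the difference of Cy5 at r = 0.756 (n = 6487 genes). Between the 75th and the 95th it was 0.47, between the 95th and the 99th it was -0.315 (n = 1038), and among the 260 brightest genes it was -0.67. These are descriptions, since both channels share the spots, the arrays and the local background. VIM was brighter in Ctrl on the GALNT3/T6 KO arrays, where its Cy5 signal was 138195 and 187668 against 613812 and 723907 on the others. RPL22L1 read 210504, 168174, 282864 and 320989 in Ctrl, with Cy5 at 574381, 564389, 163361 and 49963. TUBA1B went the other way, with 322336, 272261, 219230 and 133209 in Ctrl, and none of these 3 was called. A probe of a ferritin heavy chain pseudogene, named after its values had been seen, read 137636 and 109251 on Ctrl 1 and Ctrl 2 and 34585 and 18197 on Ctrl 3 and Ctrl 4. Its Cy5 signal was 250042 and 140558 there and 700549 and 493212 here (adjusted p = 0.262 from limma). Among the brightest genes the Ctrl channel was thus lower where Cy5 was higher, and among dim ones it was higher.

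**Figure D4:**
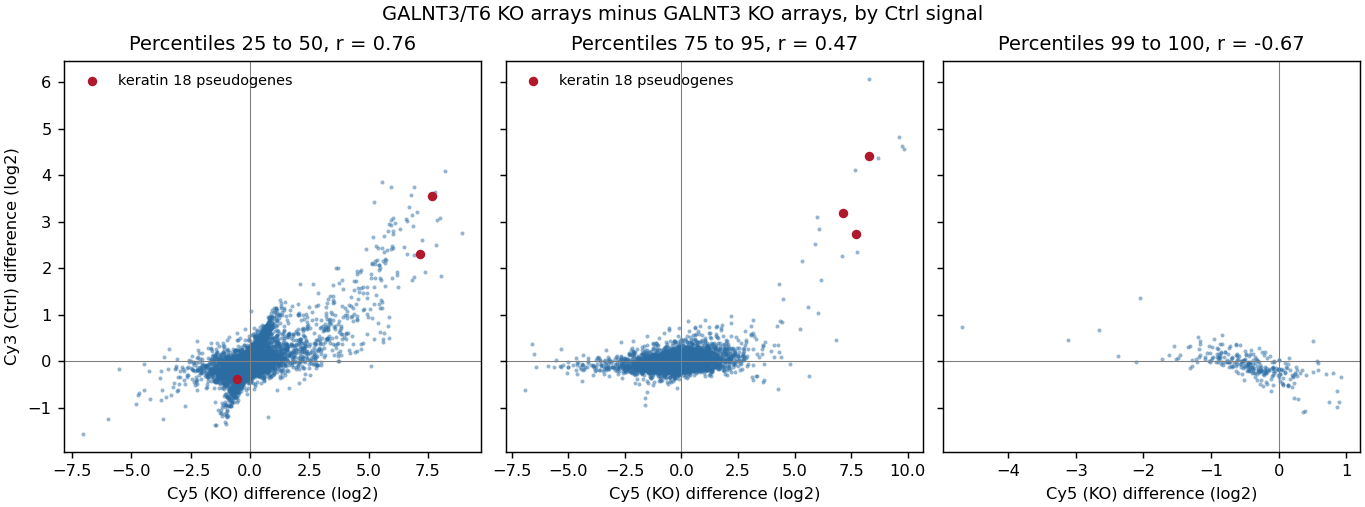
Difference of the Ctrl (Cy3) channel between the GALNT3/T6 KO arrays and the GALNT3 KO arrays (y axis, log2) against the same difference of the KO (Cy5) channel (x axis, log2), 1 point per gene, for 3 ranges of Ctrl signal percentile. Keratin 18 pseudogenes are in red. The correlation goes from 0.76 in the dim range to -0.67 in the brightest.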

How the data were processed

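Total RNA of mock-transfected Ctrl A2780s cells (Cy3) and of KO clones (Cy5) was hybridized to 4 Agilent whole human genome 4x44K arrays. The authors deposited spot intensities from Agilent Feature Extraction (10.7.3.1 per the file headers, 8.5.1.1 per the submitters' processing notes), which are not normalized. Probe coordinates are those of the files (hg19). From the deposited intensities, the Cy3 mean minus the median local background was averaged over the spots of a probe, and 35 probes with a flagged spot were left out. Each array was scaled to a common 75th percentile, floored at the highest of the arrays' lowest well-above-background signals and taken to log2. Detection is the scanner's flag for a signal well above background. Of 40965 probes, 27984 were named by accession, 2568 by symbol and 332 by an older symbol through RefSeq tables, 6907 kept the name in the files and 3076 had none. A gene is read at its brightest probe by mean log2 signal, and is seen on all arrays if any of its probes is. limma 3.58.1 in R 4.3.3 compared the Ctrl channels of the 2 array pairs over genes well above background on both arrays of a pair, with Benjamini-Hochberg adjustment. Data were simulated for that comparison of 24206 genes, with the same SD for every gene and genes drawn independently. There, 70% of changes of 1 log2 unit and 100% of changes of 2 were recovered, with 12 false calls. Real genes differ in SD, so these rates need not hold for them. At their brightest probes, KRT18 at 2.35 and HDAC9 at -2.76 (log2) were not called. Python 3.11.15 did the rest. Named genes are the 20 brightest, the brightest members and the undetected members of the lists, the 10 largest rises and falls between pairs (no fall was called) and the study's and reference genes. Members and lists were chosen with earlier results of these data known. The authors' processed value table was not used, and some genes are not reported here. Alternatives are in the closing section. With 4 arrays the precision is low.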

Additional observations from a re-analysis of the deposited data

Results flagged for a closer look

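Of 71 values tested, 6 had 1 array farther from the others than the range of 4 values allows at the 95% level of Dixon's gap over range, where chance flags about 1 in 20. ACTB was lowest on Ctrl 4 (gap over range 0.939), at 142218 against 250496 to 259923, in the brightest of its 4 probes. The other ACTB probes did not fall there, or by less, the next reading 91333, 91188, 94786 and 84688. FN1 was lowest on Ctrl 1 (0.896), at 93.1 against 290 to 331, in 1 of its 3 probes. The other FN1 probes read 183, 158, 167 and 251, and 64.2, 58.0, 241 and 837. MEIS1 was highest on Ctrl 1 (0.861), at 12066 against 9474 to 9799. The other 3 describe Ctrl 1 as a whole. It had 28 spots flagged as not uniform against 3 on each other array (gap over range 1), a within-array SD of repeated probes of 0.288 against 0.146 to 0.167 (0.85), and a median deviation from the mean of the 4 arrays of 0.207 against 0.084 to 0.0891 (0.959). The FN1 and MEIS1 values are from that array, and its part in them was not tested.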

How the results depend on the processing

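The count of genes well above background on all 4 arrays stayed within 1.5 times under the scanner's flag for positive and significant signal (24788 genes) and with each array left out (22999 to 23859). Genes on no array numbered 1138, 1204 to 1270 with an array left out, and 222 with that flag, under which HOXA11 and GALNTL5 passed on 4 arrays and GALNT8, LIN28A, DDX4, AFP and DPPA4 on 3. The median SD of 0.17 ranged from 0.0764 without Ctrl 1 to 0.189, and the lowest correlation from 0.976 to 0.989. The count of genes called between the array pairs was the least stable value. It was 57, and became 127 with median scaling (126 higher, 1 lower), 170 with the KO clone number as a replicate block (167 higher, 3 lower), 2 without genes whose Cy5 was at least 16 times Cy3, 34 without keratin 18 pseudogenes and 0 with no filter on dim probes, where the lowest adjusted p was 0.0551 and limma gave 1490 genes at an unadjusted p of at most 0.05. Leaving out each array gave 0 to 51 genes. The KO clone numbers do not pair Ctrl channels by any label. The other settings gave 38 to 66 genes. In the 10 largest rises 43 values under the alternatives lost the call, 75 kept it and none turned direction. Of the levels of named genes, 204 moved by less than their spread over arrays under another scaling, background or signal, and 27 moved by more. The largest shift was that of PRSS23, from the 59.8 percentile to 64.7 with Agilent's processed signal. Cause was not tested in any of these. Signal near the floor limits what can be said of dim genes.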

Other observations

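Further groups were read in the Ctrl cells. Genes of class I antigen presentation were bright, with HLA-C at 58883, 52728, 53538 and 45268 and the shared light chain B2M at 39062, 38552, 33765 and 33919. The class II genes HLA-DRA and CD74 lay at 4.05 and 11.1, and HLA-DRA was well above background on some arrays only. Of 29 genes in the list 28 were seen on all 4 arrays, beside 88.6% of all genes, with a median of 62.7. Among 28 stem cell and drug transport genes, with a median of 57.4, the detoxifying enzyme GSTP1 was the brightest with 228367, 212949, 214398 and 150140, followed by the topoisomerase TOP2B and the polycomb gene BMI1 at 96.8 and 93.1. The aldehyde dehydrogenase ALDH1A1 lay at 8.11 and the drug efflux pump ABCB1 at 20.8. CD44, a hyaluronan receptor, read 241 and 226 on Ctrl 1 and Ctrl 2 and 1110 and 1587 on Ctrl 3 and Ctrl 4, with Cy5 at 43481 and 79979 there, and limma did not call the difference (adjusted p = 0.0594). PROM1, the stem cell marker CD133, went the other way with 630, 647, 254 and 248 (adjusted p = 0.0682 from limma), and its Cy5 signal of 743, 924, 411 and 410 moved along.

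Long noncoding RNAs were looked at after their values had been seen. The 17 host genes of small nucleolar RNAs had a median of 81.3 and 10 of them lay above the 75th percentile, with SNHG29 at 108989, 101957, 107982 and 126001. NORAD, which binds Pumilio proteins, lay at 95.6 and MALAT1 at 91.8. DNM3OS lay at 94.6 and HOTAIR at 47.0, and H19 read 1810, 1721, 1501 and 1435. SNHG28 was well above background on no array.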
